A study of Homo sapiens with 12 samples.

Results

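The transcripts of 38 genes of the autophagy machinery and its cargo receptors were followed in 2 human multiple myeloma cell lines given dihydroartemisinin (DHA), an artemisinin derivative used against malaria. The genes were chosen by name for their roles in autophagy, with earlier results of these data known, and all 38 were found in each of 2 expression tables, 1 per line, of 61806 genes for LP-1 and 19130 genes for U266. LP-1 and U266 are established lines of malignant plasma cells, labelled as wild type and of bone marrow origin. The groups were LP-1 with DHA, LP-1 with the solvent DMSO, U266 with DHA and U266 with DMSO, with 3 libraries each. DHA was given at its IC50, whose value and readout the labels do not state, and controls received DMSO in the same quantity. All cells were collected after 12 h. Each line stands as a single culture model, and the labels do not say that the 3 libraries of a group came from separate cultures. The p-values therefore measure the spread between these libraries, which may be technical.

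Autophagy delivers cytoplasmic material to the lysosome inside a double membrane, the autophagosome. A kinase complex starts the process, a lipid kinase complex marks the site, and transfer proteins feed lipid into the growing membrane. A pair of conjugation systems built around ubiquitin-like proteins then attach ATG8 proteins to that membrane, where receptors holding ubiquitinated proteins, mitochondria or other cargo bind them. Plasma cells, which secrete large amounts of antibody, are known to depend on autophagy for their endoplasmic reticulum and their survival. Transcript levels were measured here, and neither protein levels nor the rate of autophagy were.

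Values were FPKM, fragment counts scaled by transcript length and library size, tested on the log2(FPKM + 1) scale, which understates changes of weakly expressed genes. A gene was tested where at least 3 of the 6 libraries of its line reached 1 FPKM, and was called where limma's Benjamini-Hochberg adjusted p over all tested genes of the line was under 0.05. The depth recovered from the steps of low values was 12.7 to 16.5 M reads in genes per LP-1 library and 10.5 to 22.1 M per U266 library. Of low recovered counts, 36.7 to 38.7% were even in LP-1 libraries. In U266 52.5% were even in DHA replicate 3 and 76.3 to 77.9% in the other libraries. A recovered read may therefore not be the same unit in both tables, which was not tested. The plasma cell markers SDC1 and XBP1 were present in both lines, whereas CD38 stayed at 0.223 to 0.925 FPKM in U266. A pair of libraries stood apart. LP-1 DMSO replicate 3 differed from DMSO replicates 1 and 2 by a mean chi-square of 49.3 and 82.4 per gene, against 7.72 between those replicates. U266 DHA replicate 3 had 18399 genes above 0, against 14682 to 14992 in the other U266 libraries. In that library the summed level of 3 B cell markers was 5.70 FPKM, that of 3 T and NK cell markers 4.10 FPKM and that of 3 monocyte markers 4.47 FPKM, against at most 1.35, 1.37 and 0.803 FPKM in U266 DMSO libraries. The 7 plasma cell markers summed to 931 to 943 FPKM with DHA and 996 to 1358 FPKM with DMSO in LP-1, and to 704 to 771 FPKM with DHA and 1041 to 1061 FPKM with DMSO in U266. In LP-1, IRF4 (3.16 times the DMSO mean) and PRDM1 were called higher, whereas SDC1 (0.167 times), CD38, XBP1 and MZB1 were called lower. In U266, SDC1 (0.460 times), TNFRSF17, PRDM1 and XBP1 were called lower. The stromal markers COL1A1 and COL3A1 were both called higher in U266, with a sum of 4.94 to 8.39 FPKM with DHA and 2.73 to 3.20 FPKM with DMSO, and HBB of red cells was called lower there (log2 change -0.54). In LP-1 the endothelial marker PECAM1 was called lower (-1.23), and the sums of the B, T and NK, monocyte and erythroid markers stayed at or under 1.18 FPKM. The part of these markers in the results was not tested. Calls that were gained or lost without LP-1 DMSO replicate 3 or U266 DHA replicate 3 are given beside the results. A lower value in bulk RNA cannot be told apart from fewer cells that express the gene, and since the tables were made differently, no level was compared between lines.

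In both lines, DHA was accompanied by higher transcript levels of autophagy genes more often than by lower ones. In LP-1, 11 of 36 tested members were called higher (30.6%), against a background of 20% of all tested genes, and 4 were called lower, against a background of 20.2%. In U266, 18 of 36 tested members were called higher (50%), against a background of 21.1%, and 1 was called lower, against 19.6%. The median change of the tested members was 0.16 in LP-1 and 0.22 in U266 on the log2 scale, with all-gene medians of 0.009 and 0.025. All DHA libraries lay above all DMSO libraries for 15 members in LP-1 (background 30.2%) and for 20 in U266 (background 27.6%). They lay below them for 6 members in LP-1 (background 28.6%) and for 2 in U266 (background 23.9%). In LP-1 the share called in either direction, 41.7%, was close to the 40.2% of all genes. In U266 it was 52.8%, against 40.7% of all genes.

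The U266 count depended on scaling and the LP-1 count on single libraries. With TMM-style scaling, which centres each library on a trimmed mean of ratios, 9 U266 members were called higher (25%) and 0 lower. All genes then split into 1152 higher (11%) and 2175 lower calls (20.8%), against 2203 and 2038 without it. The 10 U266 members no longer called with it were ATG2B, ATG4B, ATG7, ATG10, ATG12, GABARAPL2, NBR1, OPTN, TAX1BP1 and BNIP3L (adjusted p 0.0512 to 0.716). With no filter on low values, the calls of PIK3C3, AMBRA1, ATG2B and ATG7 in LP-1 (0.0713 to 0.0918) and of ATG7, ATG10 and GABARAPL2 in U266 (0.108 to 0.116) were lost. Without LP-1 DMSO replicate 3, 16 members were called higher and 8 lower, and 56% of all LP-1 genes were called. Members called in either direction numbered 24 without that library, 8 without DHA replicate 2 and 9 without DHA replicate 1, DHA replicate 3 or DMSO replicate 1. These 8 or 9 of 36 members, 22.2% or 25%, stood beside 22.9 to 27.1% of all genes called in the same runs. Without U266 DHA replicate 3, 17 members were called higher (47.2%) and 1 lower (2.78%), beside 21.1% and 21% of all genes. In LP-1, 8 of the 15 calls held in every alternative run that tested the gene, and in U266 9 of the 19 did. ATG14 in U266, counted among these, was not tested with a mean of at least 5 FPKM.

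**Figure D1:**
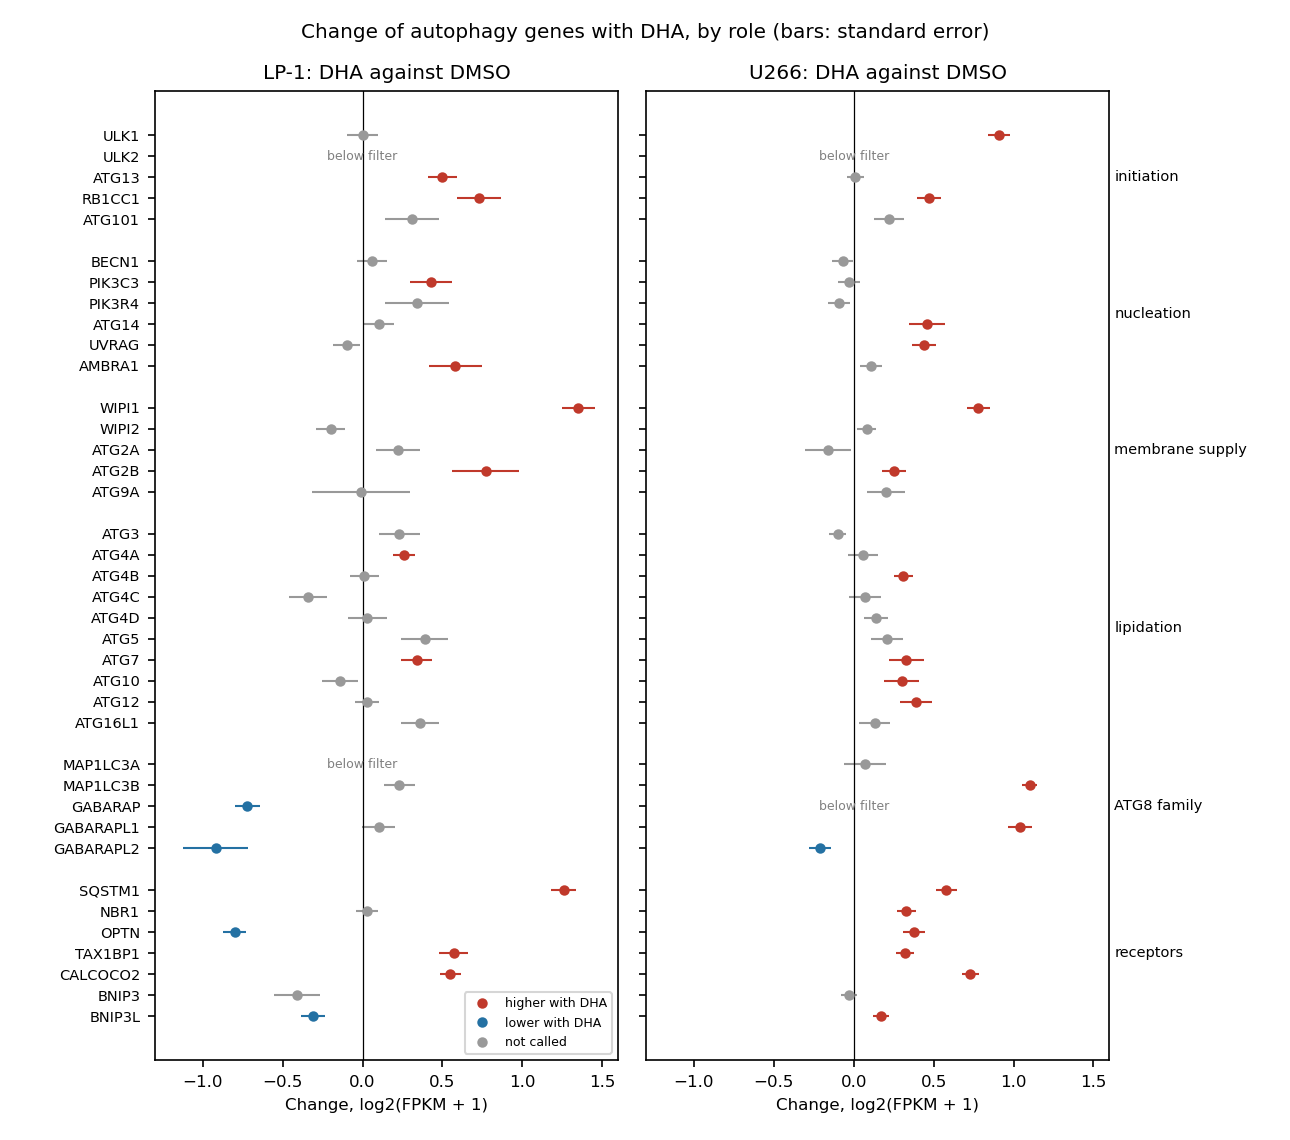
Change of each autophagy gene (DHA over DMSO, log2 of FPKM + 1, horizontal axis) in LP-1 and U266, grouped by role down the page, with limma standard errors as bars, called rises in red, called falls in blue and members not called in grey. WIPI1 and SQSTM1 have the highest points in LP-1 (1.35 and 1.26), MAP1LC3B and GABARAPL1 those in U266 (1.10 and 1.04), and OPTN lies on opposite sides of 0.

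Of the 35 members tested in both lines, 7 were called higher in both (20%), against a background of 10.2% of the 8867 genes tested in both. They were RB1CC1 of the initiating kinase complex, WIPI1 and ATG2B of membrane supply, the ATG8-activating enzyme ATG7, and the receptors SQSTM1, TAX1BP1 and CALCOCO2. One member, GABARAPL2, was called lower in both (background 6.06%). OPTN and BNIP3L, 5.71% of the 35, were called lower in LP-1 and higher in U266, a pattern with a background of 1.41%. The opposite pattern, higher in LP-1 and lower in U266, was met by 0 members, with a background of 2.38%. Called higher in LP-1 alone were ATG13, PIK3C3, AMBRA1 and ATG4A, and in U266 alone ULK1, ATG14, UVRAG, ATG4B, ATG10, ATG12, MAP1LC3B, GABARAPL1 and NBR1. A call in 1 line alone does not show that the lines differ, and the tests of the difference are given gene by gene.

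Sequence windows are shown for 5 members, chosen after their values were seen, whose rise held in every alternative run that tested them. They were WIPI1 and CALCOCO2, called higher in both lines, and MAP1LC3B, GABARAPL1 and ATG14, called higher in U266. The rises of SQSTM1, RB1CC1, ULK1, UVRAG, ATG13 and TAX1BP1 also held so in at least 1 line and are not shown. All genes shown but WIPI1 hold a match to a searched motif, and none of those left out is among the members with a match. The motifs of these 5 therefore do not stand for the stable rises as a set. Each window is the 250 bases before the transcription start in RefSeq (GRCh38.p14), 5′ to 3′ on the strand of the gene. Capitals mark a match to 1 of 4 searched motifs. The windows lie at chr17:68457497-68457746 (minus strand) for WIPI1, chr17:48830785-48831034 (plus strand) for CALCOCO2, chr16:87392086-87392335 (plus strand) for MAP1LC3B, chr12:10212627-10212876 (plus strand) for GABARAPL1 and chr14:55411831-55412080 (minus strand) for ATG14.
WIPI1: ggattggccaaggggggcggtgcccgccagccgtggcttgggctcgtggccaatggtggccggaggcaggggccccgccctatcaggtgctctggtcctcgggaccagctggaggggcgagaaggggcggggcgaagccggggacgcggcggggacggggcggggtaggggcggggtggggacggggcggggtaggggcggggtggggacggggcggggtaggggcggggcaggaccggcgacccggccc
CALCOCO2: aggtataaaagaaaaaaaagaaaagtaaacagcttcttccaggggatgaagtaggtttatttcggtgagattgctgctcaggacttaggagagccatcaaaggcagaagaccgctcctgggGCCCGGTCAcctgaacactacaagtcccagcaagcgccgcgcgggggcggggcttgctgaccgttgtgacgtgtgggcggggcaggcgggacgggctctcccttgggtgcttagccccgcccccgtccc
MAP1LC3B: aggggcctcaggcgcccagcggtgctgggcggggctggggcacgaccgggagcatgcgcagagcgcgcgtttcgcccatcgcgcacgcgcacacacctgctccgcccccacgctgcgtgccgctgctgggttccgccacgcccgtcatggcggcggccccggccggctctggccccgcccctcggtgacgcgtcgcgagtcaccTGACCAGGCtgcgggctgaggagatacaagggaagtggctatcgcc
GABARAPL1: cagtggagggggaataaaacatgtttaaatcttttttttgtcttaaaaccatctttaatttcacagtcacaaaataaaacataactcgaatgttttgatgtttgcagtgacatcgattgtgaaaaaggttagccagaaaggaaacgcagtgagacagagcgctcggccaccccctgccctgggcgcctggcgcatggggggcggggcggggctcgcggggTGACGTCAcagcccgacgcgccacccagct
ATG14: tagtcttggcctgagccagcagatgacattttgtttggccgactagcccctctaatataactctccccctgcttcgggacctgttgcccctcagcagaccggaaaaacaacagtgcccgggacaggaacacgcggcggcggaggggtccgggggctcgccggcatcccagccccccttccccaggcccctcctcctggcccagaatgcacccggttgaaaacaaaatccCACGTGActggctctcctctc
All 4 motifs were read on both strands, in windows found for 33 of the 38 members and in 35116 windows of all genes. TCACGTG, the core of the element bound by the lysosomal regulator TFEB, stood in ATG14 and ATG3 and in 3.31% of all windows. In ATG14 it appears as its reverse complement, 21 to 15 bases before the start. The palindrome TGACGTCA, the cAMP response element bound by CREB and ATF proteins, stood in GABARAPL1 alone among the members and in 1.65% of all windows. TGACNNNGC, the core of the antioxidant response element bound by NRF2, stood in ATG101, CALCOCO2 and MAP1LC3B and in 10.9% of all windows. TGATGNAA, the composite element of C/EBP and ATF4, stood in 0 member windows and in 3.14% of all windows. Of the 41 member windows, 4.88% held TCACGTG, 2.44% TGACGTCA and 7.32% TGACNNNGC. These shares rest on 2, 1 and 3 windows, and the last lies under the share of all windows. The GENCODE v29 models of all 5 genes begin upstream of the RefSeq start. The bases just after that start were found unbroken in a GENCODE v29 transcript for each of these genes but CALCOCO2. A match describes these letters and was not tested as a binding site.

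In the complex of a kinase and its scaffolds that starts autophagy, RB1CC1 was called higher in both lines, ULK1 in U266 and ATG13 in LP-1. ULK1, the kinase that starts autophagy under nutrient or energy stress, had 12.3, 11.1 and 11.6 FPKM in U266 DHA libraries, against 5.61, 5.81 and 5.80 FPKM in DMSO libraries. The groups did not overlap, and the mean was 2.03 times that with DMSO, a log2 change of 0.91 (SE 0.067, 95% interval 0.76 to 1.06, adjusted p = 4.42e-06). In LP-1 it had 4.92, 4.76 and 4.0 FPKM with DHA, against 4.65, 4.76 and 4.26 FPKM with DMSO, groups that overlapped, with an interval of the log2 change of -0.23 to 0.23. The difference between the lines, always given as the LP-1 change minus the U266 change, was -0.91 (95% interval -1.16 to -0.67, adjusted p = 0.000130). ULK1 spans chr12:131894651-131923167 (GRCh38, GENCODE v29).

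ATG13, the subunit that carries nutrient signals to the kinase, had 20.9, 21.1 and 21.3 FPKM in LP-1 DHA libraries, against 15.2, 15.7 and 12.9 FPKM in DMSO libraries. All DHA values lay above all DMSO values, with a log2 change of 0.50 ± 0.091 (SE, adjusted p = 0.00671). In U266 the means were 16.4 ± 0.610 FPKM with DHA and 16.3 ± 0.315 FPKM with DMSO (SD, n = 3 each), and the change differed between the lines by 0.49 (adjusted p = 0.00380). RB1CC1 (FIP200), the large scaffold of the complex, rose in both lines. It had 39.2, 36.9 and 36.8 FPKM with DHA in LP-1, against 22.9, 26.3 and 18.2 FPKM with DMSO, a log2 change of 0.73 ± 0.136 (SE, adjusted p = 0.00720). U266 showed 27.4, 29.8 and 26.5 FPKM with DHA, against 21.0, 17.7 and 21.0 FPKM with DMSO, a log2 change of 0.47 ± 0.074 (SE, adjusted p = 0.000690). Neither line showed overlap, and the difference between the lines did not pass (0.27, 95% interval -0.09 to 0.62). ATG101, which stabilises ATG13, was not called in either line, with log2 changes of 0.31 in LP-1 and 0.22 in U266. Without LP-1 DMSO replicate 3 its LP-1 change passed (0.45, adjusted p = 0.0275). ULK2, the paralog of ULK1, fell below the filter in both lines. It held 0 to 4 reads in 11 of the libraries and 163 reads (1.01 FPKM) in U266 DHA replicate 3, the library with raised markers of other cell types.

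**Figure D2:**
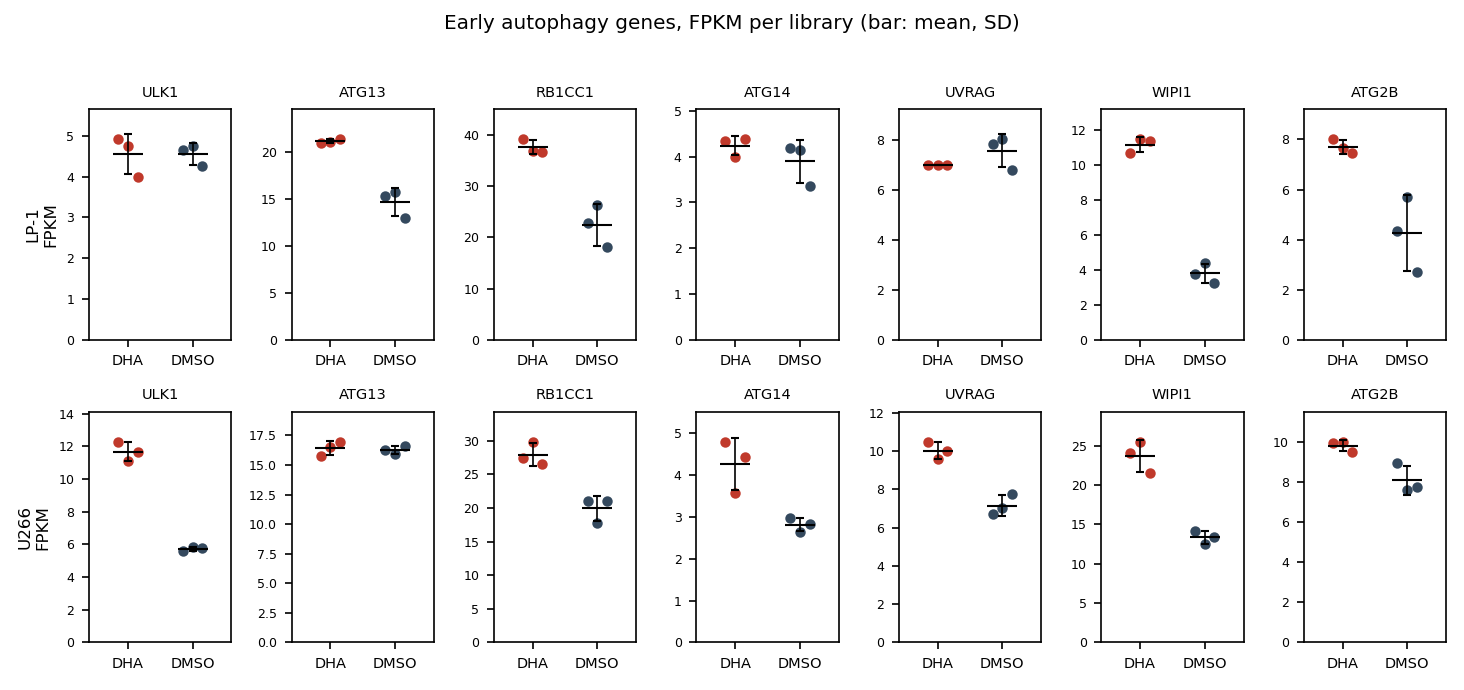
FPKM in each library (points, replicates 1 to 3 from left to right) with group means and SD (lines and whiskers) for 7 early autophagy genes, LP-1 above U266 and DHA left of DMSO. WIPI1 and RB1CC1 are higher with DHA in both lines, ULK1 in U266 and ATG13 in LP-1, and LP-1 DMSO replicate 3 is the lowest DMSO library for each of these genes.

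The lipid kinase complex that nucleates the membrane had PIK3C3 and AMBRA1 called higher in LP-1 and ATG14 and UVRAG in U266. PIK3C3 (VPS34), its catalytic subunit, had 5.99, 6.21 and 5.99 FPKM in LP-1 DHA libraries, against 4.74, 4.82 and 3.28 FPKM in DMSO libraries. AMBRA1, a regulator that links the complex to the kinase complex and to ubiquitin ligases, had 7.27, 7.19 and 6.53 FPKM with DHA, against 4.86, 5.26 and 3.12 FPKM with DMSO in the same line. Both lay wholly above DMSO, with log2 changes of 0.43 ± 0.133 (SE, adjusted p = 0.0415) for PIK3C3 and 0.58 ± 0.166 (SE, adjusted p = 0.0322) for AMBRA1. Each call was lost without any single DHA library or without DMSO replicate 1, with adjusted p of 0.0618 to 0.126 for PIK3C3 and 0.0586 to 0.104 for AMBRA1. Without DMSO replicate 3, the lowest of its group, the changes were 0.29 and 0.40. With the exon length trend removed, the PIK3C3 change was 0.13 in LP-1 (adjusted p = 0.183). In U266 the PIK3C3 means were 6.88 ± 0.367 FPKM with DHA and 7.04 ± 0.113 FPKM with DMSO, and the change differed between the lines by 0.46 (adjusted p = 0.0308). The PIK3C3 difference was 0.15 with the exon length trend removed (adjusted p = 0.207) and was lost without 8 of the 12 libraries in turn (0.0536 to 0.0694). AMBRA1 had a U266 log2 change of 0.11 ± 0.069 (SE, adjusted p = 0.255), and its difference between the lines did not pass (0.48, adjusted p = 0.0561). That difference passed without any single LP-1 DMSO library (adjusted p 0.0129 to 0.0484), at 0.29 without DMSO replicate 3 (0.0210), and with TMM-style scaling, quantile normalization or the replicate block (0.0161 to 0.0378).

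ATG14 and UVRAG, which join Beclin 1 in alternative forms of the lipid kinase complex, rose in U266. ATG14 had 4.79, 3.57 and 4.44 FPKM in U266 DHA libraries, against 2.97, 2.65 and 2.83 FPKM in DMSO libraries, a log2 change of 0.46 ± 0.111 (SE, adjusted p = 0.00808). UVRAG had 10.5, 9.61 and 9.99 FPKM with DHA, against 6.70, 7.01 and 7.76 FPKM with DMSO, a log2 change of 0.44 ± 0.074 (SE, adjusted p = 0.00103). The groups of both genes stood apart in U266. In LP-1 they overlapped, with log2 changes of 0.10 for ATG14 and -0.10 for UVRAG. The lines differed for UVRAG by -0.53 (adjusted p = 0.00320), whereas for ATG14 the difference of -0.36 did not pass (adjusted p = 0.0737) and passed without LP-1 DMSO replicate 3 (-0.44, adjusted p = 0.0154). UVRAG in LP-1 also passed without that library (-0.16, adjusted p = 0.0362). BECN1 (Beclin 1), the core of both forms, had log2 changes of 0.06 in LP-1 and -0.07 in U266, and PIK3R4, the regulatory subunit, 0.34 and -0.09 in the same order. Neither gene was called in either line, and the PIK3R4 change in LP-1 was 0.10 without DMSO replicate 3.

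Among the genes of membrane supply, WIPI1 rose in both lines and had the largest member change in LP-1. WIPI1 binds the lipid made by PIK3C3 at the site of autophagosome formation. It had 10.7, 11.4 and 11.3 FPKM in LP-1 DHA libraries, against 3.74, 4.37 and 3.26 FPKM in DMSO libraries, a ratio of means of 2.94 and a log2 change of 1.35 (SE 0.104, 95% interval 1.10 to 1.6, adjusted p = 0.000351). In U266 it had 24.1, 25.5 and 21.5 FPKM with DHA, against 14.2, 12.6 and 13.4 FPKM with DMSO, a log2 change of 0.78 (SE 0.072, 95% interval 0.62 to 0.94, adjusted p = 2.14e-05). Every DHA library exceeded every DMSO library in each line, and the LP-1 change was the larger one, with a difference between the lines of 0.57 (95% interval 0.28 to 0.86, adjusted p = 0.00641). The gene lies at chr17:68420948-68457513, and 24.3% of its exon bases lie opposite exons of ARSG. Whether counting kept strands apart is not stated. ARSG itself had 2.49 to 2.84 FPKM with DHA in LP-1 and 1.30 to 2.26 FPKM with DMSO.

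ATG2B, a lipid transfer protein that bridges the endoplasmic reticulum and the growing membrane, was called higher in both lines. It had 8.01, 7.64 and 7.46 FPKM with DHA in LP-1, against 4.35, 5.72 and 2.70 FPKM with DMSO, a log2 change of 0.77 ± 0.210 (SE, adjusted p = 0.0283). The U266 libraries had 9.90, 9.98 and 9.48 FPKM with DHA, against 8.91, 7.58 and 7.74 FPKM with DMSO, a log2 change of 0.25 ± 0.074 (SE, adjusted p = 0.0207). The groups did not overlap, but the calls were not stable. In LP-1 the call was lost without any single DHA library or DMSO replicate 1 (adjusted p 0.0701 to 0.0914), and in U266 without DHA replicates 1 or 2 or DMSO replicates 2 or 3 (0.0528 to 0.0780). With the exon length trend removed the ATG2B change was 0.47 in LP-1 (adjusted p = 0.0123), and with TMM-style scaling it was 0.15 in U266 (adjusted p = 0.295). The ATG2B difference between the lines did not pass (0.52, adjusted p = 0.0960). WIPI2, which recruits the ATG16L1 complex, had log2 changes of -0.20 in LP-1 and 0.08 in U266, and ATG2A, the paralog of ATG2B, 0.22 and -0.16. ATG2A in U266 was called without DHA replicate 3 (-0.32, adjusted p = 0.0321). Without LP-1 DMSO replicate 3 the LP-1 change of ATG2A was 0.07. ATG9A, the lipid scramblase of the seed vesicles, had 7.43, 7.76 and 6.54 FPKM with DHA in LP-1, against 9.64, 9.78 and 3.95 FPKM with DMSO. The third DMSO library lay below all others there. Without it the LP-1 change of ATG9A was -0.38 (adjusted p = 0.00674), against -0.01 with it. In U266 the ATG9A change was 0.20 ± 0.118 (SE, adjusted p = 0.215). Of the exon bases of ATG9A, 38.8% are shared on the same strand with AC068946.2. That entry had 0.11 to 0.34 FPKM in LP-1 libraries and is not in the U266 table. The part of this overlap in the ATG9A values was not tested.

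Of the 10 genes of the conjugation machinery, 2 were called higher in LP-1 (20%), the same share as among all genes there (20%), and 4 in U266 (40%, background 21.1%), with 0 lower in either line. ATG7, the activating enzyme shared by both conjugation systems, had 2.16, 2.17 and 2.39 FPKM with DHA in LP-1, against 1.76, 1.37 and 1.58 FPKM with DMSO, a log2 change of 0.34 ± 0.097 (SE, adjusted p = 0.0345). For U266 the values were 3.17, 4.08 and 4.22 FPKM with DHA, against 2.82, 2.71 and 2.95 FPKM with DMSO, a log2 change of 0.33 ± 0.112 (SE, adjusted p = 0.0396). These groups did not overlap in either line, and the levels were among the lowest of the members. The ATG7 calls were lost in LP-1 without any single library but DMSO replicate 3 (adjusted p 0.0535 to 0.124). In U266 they were lost without any single library but DHA replicate 1 (0.0753 to 0.121). With a trend on exon length removed, the LP-1 change of ATG7 was 0.16 (adjusted p = 0.315). Of the exon bases of ATG7, 18.1% lie opposite exons of VGLL4.

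Cysteine proteases of the ATG4 family prime ATG8 proteins for lipid attachment and release them again. ATG4A had 7.23, 7.53 and 7.74 FPKM with DHA in LP-1, against 6.20, 6.22 and 5.94 FPKM with DMSO, without overlap. Its log2 change of 0.26 ± 0.071 (SE, adjusted p = 0.0295) lost its call without any single DHA library or DMSO replicate 1 (adjusted p 0.0800 to 0.124). ATG4B, the most active family member, had 9.89, 10.1 and 10.2 FPKM with DHA in U266, against 7.86, 8.02 and 8.0 FPKM with DMSO, a log2 change of 0.31 ± 0.061 (SE, adjusted p = 0.00284). In LP-1 its means were 9.36 ± 0.237 FPKM with DHA and 9.35 ± 0.965 FPKM with DMSO, and the lines differed by -0.30 (adjusted p = 0.0393). That difference was lost without 10 of the 12 libraries in turn (adjusted p 0.0535 to 0.0938). ATG4C and ATG4D were not called in either line, with log2 changes in LP-1 of -0.34 for ATG4C, whose DHA libraries all lay below DMSO, and 0.03 for ATG4D. The ATG4C change in LP-1 passed without DMSO replicate 3 (-0.24, adjusted p = 0.0331).

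ATG12 and ATG10 belong to the system that builds the ATG12, ATG5 and ATG16L1 conjugate. ATG12, its ubiquitin-like modifier, had 5.01, 5.15 and 4.40 FPKM with DHA in U266, against 3.08, 3.57 and 3.71 FPKM with DMSO, a log2 change of 0.39 ± 0.098 (SE, adjusted p = 0.00932). The ATG12 call was lost with TMM-style scaling (0.31, adjusted p = 0.0512) and quantile normalization (0.29, adjusted p = 0.0609). ATG10, the conjugating enzyme that passes ATG12 to ATG5, had 2.47, 2.77 and 2.71 FPKM with DHA, against 1.95, 1.84 and 2.08 FPKM with DMSO, a log2 change of 0.30 ± 0.110 (SE, adjusted p = 0.0489). Both were separated by treatment in U266 and overlapped in LP-1. Differences between the lines were -0.36 (adjusted p = 0.0307) for ATG12 and -0.44 (adjusted p = 0.0248) for ATG10. Of the exon bases of ATG10, 6.86% lie opposite exons of RPS23, a far more abundant transcript. RPS23 had 163 to 174 FPKM with DHA in LP-1 and 180 to 394 FPKM with DMSO. In U266 it had 28.6 to 30.3 FPKM with DHA and 28.9 to 30.8 FPKM with DMSO. The part of RPS23 reads in the ATG10 values was not tested. The U266 call of ATG10 was lost without any single library but DHA replicate 3 (adjusted p 0.0603 to 0.148) and with quantile normalization (0.18, adjusted p = 0.233), and the line differences of ATG12 and ATG10 without 7 and 4 single libraries (0.0540 to 0.0761 and 0.0507 to 0.0608). ATG3, the enzyme that attaches ATG8 proteins to lipid, ATG5 and ATG16L1 were not called in either line. Their LP-1 log2 changes were 0.23, 0.39 and 0.36. Without LP-1 DMSO replicate 3 all 3 passed, at 0.37 for ATG3 (adjusted p = 0.00125), 0.55 for ATG5 (0.00143) and 0.25 for ATG16L1 (0.0386).

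The ATG8 family, whose lipid-bound members coat the autophagosome and hold the receptors, held the largest U266 rises among the members and also LP-1 falls. MAP1LC3B (LC3B), the usual marker protein of autophagosomes, had 61.1, 62.7 and 59.5 FPKM in U266 DHA libraries, against 28.97, 27.4 and 27.5 FPKM in DMSO libraries. That was 2.18 times the DMSO mean, a log2 change of 1.10 (SE 0.047, 95% interval 1.00 to 1.20, adjusted p = 9.71e-08). GABARAPL1, a GABARAP paralog, had 15.2, 13.99 and 16.0 FPKM with DHA in U266, against 7.23, 6.78 and 6.38 FPKM with DMSO, 2.22 times the DMSO mean and a log2 change of 1.04 (SE 0.073, 95% interval 0.88 to 1.20, adjusted p = 3e-06). The lowest DHA library of each gene lay well above its highest DMSO library. In LP-1, MAP1LC3B had 34.2, 34.8 and 36.7 FPKM with DHA, against 29.03, 27.4 and 33.8 FPKM with DMSO, a log2 change of 0.23 ± 0.096 (SE, adjusted p = 0.103) that passed without DMSO replicate 3 (0.31, adjusted p = 0.00366). GABARAPL1 was near the detection filter in LP-1, with 1.25, 1.01 and 1.01 FPKM with DHA and 1.08, 0.93 and 0.850 FPKM with DMSO, and these groups overlapped. The differences between the lines were -0.87 (95% interval -1.11 to -0.64, adjusted p = 0.000126) for MAP1LC3B and -0.95 (95% interval -1.21 to -0.68, adjusted p = 0.000168) for GABARAPL1. MAP1LC3B shares 4.82% of its 50-base words with its near copy MAP1LC3B2, which had 3.83 to 4.49 FPKM with DHA in U266 and 1.64 to 1.87 FPKM with DMSO, so reads in the shared stretch are uncertain. The genes lie at chr16:87383995-87404779 and chr12:10212458-10223130.

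GABARAP and GABARAPL2 fell in LP-1, where they were among the most abundant members. GABARAP had 27.1, 26.2 and 25.3 FPKM with DHA, against 42.7, 42.1 and 46.5 FPKM with DMSO, 0.598 times the DMSO mean and a log2 change of -0.72 (SE 0.076, 95% interval -0.90 to -0.54, adjusted p = 0.00103). GABARAPL2 (GATE-16), a further GABARAP paralog, had 18.3, 17.4 and 18.3 FPKM with DHA, against 31.8, 27.6 and 48.9 FPKM with DMSO, a log2 change of -0.92 (SE 0.202, 95% interval -1.41 to -0.44, adjusted p = 0.0133). Every DHA library lay below every DMSO library for both genes. The GABARAPL2 change was -0.69 without DMSO replicate 3, its highest library, and its call was lost without DHA replicate 2 (adjusted p = 0.0533). In U266, GABARAPL2 had 25.7, 24.6 and 22.0 FPKM with DHA, against 25.8, 29.1 and 29.3 FPKM with DMSO, a log2 change of -0.21 ± 0.070 (SE, adjusted p = 0.0365) whose groups came close without overlap. That U266 call was lost without DHA replicates 2 or 3 or DMSO replicates 2 or 3 (adjusted p 0.0580 to 0.126). The fall was the larger one in LP-1, with a difference of -0.71 (adjusted p = 0.0276) that was lost without 6 of the 12 libraries in turn (0.0511 to 0.0667).

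GABARAP in U266 and MAP1LC3A in LP-1 did not reach the filter. GABARAP stood at 8, 9 and 16 reads in U266 DHA libraries and at 4, 5 and 1 reads in DMSO libraries, under 0.5 FPKM throughout. In the annotation 30.5% of its exon bases are shared on the same strand with AC120057.2, an entry at 0 in all LP-1 libraries and not in the U266 table; the part of that overlap in the low counts was not tested. MAP1LC3A (LC3A) stood at 3, 3 and 2 reads in LP-1 DHA libraries and at 1, 1 and 0 reads in DMSO libraries. In U266 MAP1LC3A had means of 2.12 ± 0.316 FPKM with DHA and 1.98 ± 0.301 FPKM with DMSO, and was not called.

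**Figure D3:**
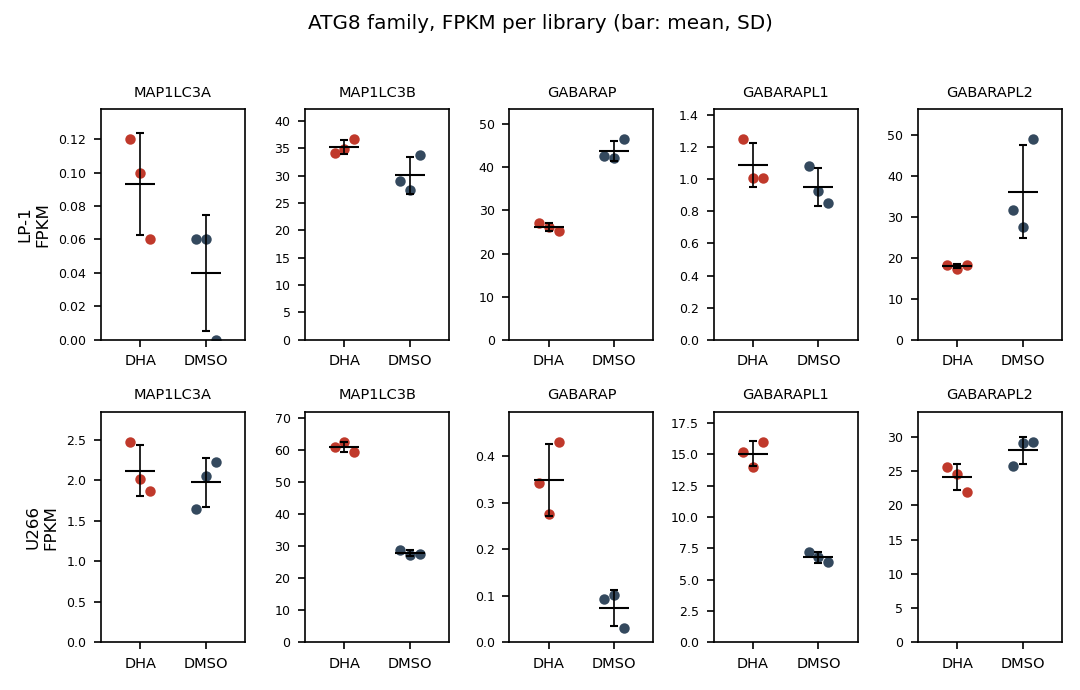
FPKM in each library (points) with group means and SD (lines and whiskers) of the 5 ATG8 family genes, LP-1 above U266 and DHA left of DMSO. MAP1LC3B and GABARAPL1 are higher with DHA in U266, GABARAP and GABARAPL2 are lower with DHA in LP-1, and MAP1LC3A in LP-1 and GABARAP in U266 lie near 0.

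Receptors had the largest share of calls among the classes of members. In LP-1, 3 of 7 were called higher (background 20%) and 2 lower (background 20.2%). In U266, 6 of 7 were called higher (background 21.1%) and 0 lower (background 19.6%). SQSTM1 (p62), which binds ubiquitinated proteins and is itself degraded with them, had 46.0, 46.7 and 43.3 FPKM in LP-1 DHA libraries, against 18.6, 17.2 and 19.4 FPKM in DMSO libraries. Its ratio of means was 2.46 and its log2 change 1.26 (SE 0.079, 95% interval 1.07 to 1.45, adjusted p = 0.000202). In U266 it had 103, 93.6 and 86.05 FPKM with DHA, against 62.0, 60.8 and 64.2 FPKM with DMSO, a log2 change of 0.58 (SE 0.064, 95% interval 0.44 to 0.73, adjusted p = 6.02e-05). No DHA value overlapped a DMSO value in either line, and the difference between the lines was 0.67 (95% interval 0.44 to 0.91, adjusted p = 0.000709). SQSTM1 lies at chr5:179806398-179838078, with 20.7% of its exon bases opposite exons of MRNIP. MRNIP had 5.32 to 5.41 FPKM with DHA in LP-1 and 2.63 to 3.55 FPKM with DMSO.

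CALCOCO2 (NDP52) and TAX1BP1, related receptors for ubiquitin-coated cargo such as bacteria and damaged mitochondria, rose in both lines. CALCOCO2 had 10.0, 9.79 and 10.1 FPKM with DHA in LP-1, against 6.34, 6.49 and 6.56 FPKM with DMSO, a log2 change of 0.55 (SE 0.067, 95% interval 0.39 to 0.71, adjusted p = 0.00161). In U266 CALCOCO2 had 36.6, 33.7 and 33.4 FPKM with DHA, against 20.7, 20.1 and 20.6 FPKM with DMSO, a log2 change of 0.73 (SE 0.052, 95% interval 0.61 to 0.84, adjusted p = 3.9e-06). The groups stood apart in both lines. TAX1BP1 had 17.7, 16.8 and 19.1 FPKM with DHA in LP-1, against 11.7, 12.8 and 10.7 FPKM with DMSO, a log2 change of 0.57 ± 0.092 (SE, adjusted p = 0.00469). In U266 TAX1BP1 had 27.8, 26.5 and 24.8 FPKM with DHA, against 20.36, 21.0 and 21.3 FPKM with DMSO, a log2 change of 0.32 ± 0.056 (SE, adjusted p = 0.00126). Again no DHA library fell within the DMSO range. Differences between the lines did not pass for either gene, at -0.17 for CALCOCO2 (95% interval -0.35 to 0.01) and 0.24 for TAX1BP1 (0.01 to 0.48). NBR1, which acts beside SQSTM1, had 24.8, 26.5 and 23.8 FPKM with DHA in U266, against 19.8, 20.3 and 18.9 FPKM with DMSO, a log2 change of 0.33 ± 0.057 (SE, adjusted p = 0.00116). In LP-1 its means were 20.6 ± 0.327 FPKM with DHA and 20.2 ± 0.808 FPKM with DMSO, and the lines differed by -0.31 (adjusted p = 0.0204), which was lost without 4 single libraries (adjusted p 0.0508 to 0.0562).

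OPTN (optineurin), a receptor for bacteria, protein aggregates and depolarised mitochondria, moved in opposite directions. It had 7.56, 6.75 and 7.23 FPKM in LP-1 DHA libraries, against 13.1, 13.1 and 13.5 FPKM in DMSO libraries, 0.543 times the DMSO mean and a log2 change of -0.80 (SE 0.073, 95% interval -0.97 to -0.62, adjusted p = 0.000665). In U266 it had 23.1, 25.5 and 25.2 FPKM with DHA, against 17.2, 18.5 and 20.37 FPKM with DMSO, 1.32 times the DMSO mean and a log2 change of 0.38 (SE 0.069, 95% interval 0.23 to 0.54, adjusted p = 0.00154). All DHA libraries were low in LP-1 and all were high in U266. The difference of -1.18 (95% interval -1.41 to -0.95, adjusted p = 1.4e-05) between the lines had the largest size among the 35 members tested in both. OPTN lies at chr10:13099449-13138308. With TMM-style scaling the U266 rises of OPTN, TAX1BP1, NBR1 and ATG4B kept their direction and were no longer called (0.28, 0.22, 0.23 and 0.21, adjusted p 0.0610, 0.165, 0.137 and 0.125).

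BNIP3L (NIX) and BNIP3 are paired receptors in the outer mitochondrial membrane that mark mitochondria for removal. BNIP3L had 44.4, 44.5 and 47.3 FPKM with DHA in LP-1, against 56.6, 53.5 and 59.5 FPKM with DMSO, a log2 change of -0.31 ± 0.078 (SE, adjusted p = 0.0212). In U266 it had 34.0, 34.7 and 34.4 FPKM with DHA, against 31.6, 29.2 and 30.7 FPKM with DMSO, a log2 change of 0.17 ± 0.048 (SE, adjusted p = 0.0178). The groups did not overlap in either line, and the lines differed by -0.48 (adjusted p = 0.00171). The LP-1 call was lost without any single DHA library or DMSO replicate 1 (adjusted p 0.0638 to 0.103), and the U266 call without DHA replicate 2 or DMSO replicates 2 or 3 (0.0509 to 0.0666). With TMM-style scaling the U266 change of BNIP3L was 0.06 (adjusted p = 0.716). BNIP3 had 10.1, 9.68 and 10.8 FPKM with DHA in LP-1, against 12.5, 12.3 and 17.4 FPKM with DMSO, all lower with DHA. Its log2 change of -0.41 ± 0.141 (SE, adjusted p = 0.0568) passed at -0.50 (adjusted p = 0.0397) once DMSO replicate 2 was left out, and at -0.26 (adjusted p = 0.0116) once DMSO replicate 3 was. In U266 the BNIP3 means were 24.1 ± 0.970 FPKM with DHA and 24.6 ± 0.461 FPKM with DMSO.

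**Figure D4:**
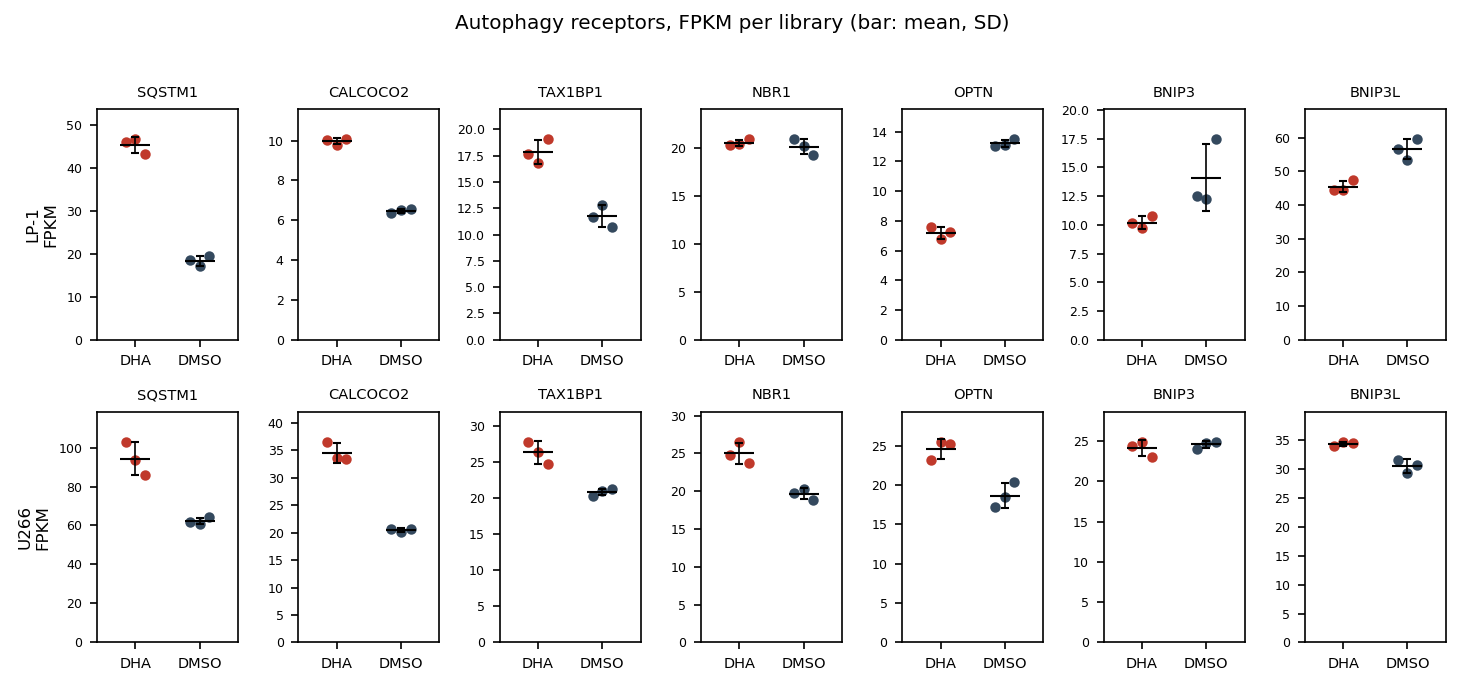
FPKM in each library (points) with group means and SD (lines and whiskers) of the 7 cargo receptors, LP-1 above U266 and DHA left of DMSO. SQSTM1, CALCOCO2 and TAX1BP1 are higher with DHA in both lines, while OPTN and BNIP3L are lower with DHA in LP-1 and higher with DHA in U266.

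Between the lines, the DHA change differed for 15 of the 35 members tested in both (42.9%), against a background of 34.7% of 8867 genes. ATG13, PIK3C3, WIPI1 and SQSTM1 had the higher change in LP-1, and the other 11 had the higher change in U266. The differences of ULK1, ATG13, UVRAG, WIPI1, MAP1LC3B, GABARAPL1, SQSTM1 and OPTN held in every alternative run. TMM-style scaling moved the all-gene median of the difference to 0.143, against 0.018 without it, and small differences are read relative to that shift. With that scaling the differences of ATG4B (-0.17), ATG10 (-0.35), ATG12 (-0.24), GABARAPL2 (-0.58), NBR1 (-0.17) and BNIP3L (-0.34) kept their direction and were no longer called (adjusted p 0.0877 to 0.378). Those of PIK3R4 (0.56, adjusted p = 0.0309), AMBRA1 (0.60, 0.0161), ATG2A (0.49, 0.0325) and ATG2B (0.65, 0.0293) were gained, all with the higher change in LP-1. The scaled count was 13 of 35 members (37.1%), beside 34.4% of all genes. The larger number of members with the higher change in U266 thus depended on scaling. Without LP-1 DMSO replicate 3, 22 members differed, beside 47.4% of all genes tested. Among those gained were ATG3 (0.47, adjusted p = 0.000131), ATG9A (-0.58, 0.00261), BNIP3 (-0.23, 0.0265), WIPI2 (-0.28, 0.0415) and ATG5 (0.34, 0.0490). Without U266 DHA replicate 3 the difference of ATG2A passed (0.54, adjusted p = 0.0395). The count was also 22 (62.9%) without LP-1 DMSO replicate 2, beside 43.2% of all genes. It was 9 (25.7%) without LP-1 DHA replicate 1 or 2, close to the 26.4% of all genes in both runs.

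LP-1 DMSO replicate 3 departed from its fellow libraries in step with transcript length. Over 12270 LP-1 genes, its log2 deviation from the mean of DMSO replicates 1 and 2 had a median of 0.21 for exon lengths under 3000 bases and of -0.35 for exon lengths over 8000 bases. Among the 36 tested members, Spearman's rho between deviation and exon length was -0.42, as a description across genes of 1 library. The extremes were GABARAPL2 with 3034 exon bases, which stood 0.71 above its fellows, and ATG9A with 4724 exon bases, shorter than most members, which stood 1.11 below. In U266 DHA replicate 3 the same rho was -0.02. Long members such as PIK3C3 and ATG2B had their lowest DMSO value in that library, and their LP-1 changes were smaller both without it and with the exon length trend removed.

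**Figure D5:**
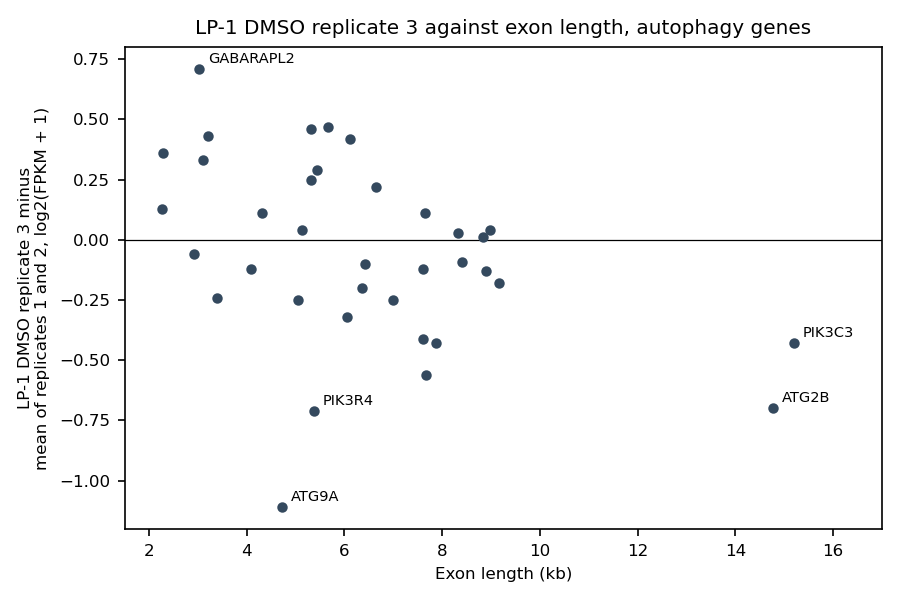
Deviation of LP-1 DMSO replicate 3 from the mean of DMSO replicates 1 and 2 (log2, vertical axis) against exon length in kilobases (horizontal axis) for the 36 tested members. Points tend to lie lower at greater length, with GABARAPL2 at 0.71 and ATG9A at -1.11 as the extremes, the second of them a gene of 4724 exon bases.

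Another 46 genes of the pathway, regulators, receptors and fusion factors, were listed apart from the members. In LP-1, 15 of 42 tested were called higher (background 20%) and 4 lower (background 20.2%), with a median log2 change of 0.20. In U266, 17 of 42 were called higher (background 21.1%) and 7 lower (background 19.6%), with a median of 0.14. The 3 largest called rises of this list were SESN2, TRIB3 and CCPG1 in both lines. SESN2 (sestrin 2), an inhibitor of mTORC1 signalling, had 141, 147 and 136 FPKM with DHA in LP-1, against 12.4, 10.3 and 7.85 FPKM with DMSO, a log2 change of 3.69 ± 0.153 (SE, adjusted p = 6.4e-05). In U266 SESN2 had 95.7, 93.7 and 98.5 FPKM with DHA, against 13.3, 14.5 and 15.2 FPKM with DMSO, a log2 change of 2.66 ± 0.055 (SE, adjusted p = 5.23e-10). The groups were far apart in both lines. TRIB3, a pseudokinase induced by stress, had log2 changes of 3.23 ± 0.077 (SE, adjusted p = 1.61e-05) in LP-1 and 2.64 ± 0.063 (SE, adjusted p = 1.08e-09) in U266. CCPG1, a receptor for autophagy of the endoplasmic reticulum, had 2.21 ± 0.068 (SE, adjusted p = 2.14e-05) and 1.12 ± 0.070 (SE, adjusted p = 1.33e-06) in the same order.

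The largest called falls of that list were led by TP53INP1, a stress-induced protein that binds ATG8 proteins, in both lines. TP53INP1 had 48.5, 48.1 and 48.6 FPKM with DHA in LP-1, against 127, 133 and 103 FPKM with DMSO, a log2 change of -1.3 ± 0.112 (SE, adjusted p = 0.000530). In U266 it had 22.6, 24.5 and 22.6 FPKM with DHA, against 44.9, 38.9 and 42.1 FPKM with DMSO, a log2 change of -0.83 ± 0.062 (SE, adjusted p = 5.02e-06). All DHA libraries were low in each line. FKBP8, a receptor on mitochondria, followed in LP-1 with -1.18 ± 0.218 (SE, adjusted p = 0.00733), and ATG16L2, the paralog of ATG16L1, with -1.09 ± 0.087 (SE, adjusted p = 0.000411). The FKBP8 values there were 19.1, 20.7 and 17.35 FPKM with DHA, against 40.3, 34.2 and 62.6 FPKM with DMSO. DMSO replicate 3 was thus its highest library. In U266, ATL3, a receptor on tubular endoplasmic reticulum, fell by 0.35 on the log2 scale (adjusted p = 0.00122), and FUNDC1, a receptor on mitochondria, by 0.30 with overlapping groups (adjusted p = 0.0314). None of the fusion factors was among these genes, with 1 of 7 called higher and 1 lower in LP-1 and 2 of 7 higher and 2 lower in U266, 14.3% and 28.6% in each direction beside the same backgrounds.

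Within each line, the most abundant member transcripts were those of certain receptors and ATG8 genes. Other ATG8 genes were among the lowest members, GABARAPL1 and MAP1LC3A in LP-1 and GABARAP and MAP1LC3A in U266. In LP-1 with DMSO the order of mean FPKM began with BNIP3L at 56.5 ± 3.02, GABARAP at 43.8 ± 2.39, GABARAPL2 at 36.1 ± 11.3 and MAP1LC3B at 30.1 ± 3.30 (SD, n = 3). BNIP3L and GABARAP stood apart by more than their spread, whereas GABARAPL2 overlapped both of its neighbours. In U266 with DMSO it began with SQSTM1 at 62.4 ± 1.72, BNIP3L at 30.5 ± 1.17, GABARAPL2 at 28.0 ± 1.96 and MAP1LC3B at 28.0 ± 0.863. There SQSTM1 stood clear of the rest, and the other 3 lay close together.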

How the data were processed

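The authors deposited FPKM values for each line separately, keyed by Ensembl gene for LP-1 and by symbol for U266, per the file headers. RNA came from an RNeasy kit and libraries from a SMARTER mRNA kit, per the labels' protocols. Both tables hold human genes, although GRCm38 and mm10, which are mouse builds, are the only ones listed per the submitters' processing notes. Aligner, counter, annotation and strandedness: not given in the sources used here. Every per-sample column was mapped to a library by its name. Gene coordinates and exon lengths came from GENCODE v29 (GRCh38), and promoter windows from RefSeq.

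The members and the lists of other autophagy genes and cell type markers were chosen with earlier results of these data known. From the deposited FPKM, log2(FPKM + 1) was computed, and genes that reached 1 FPKM in 3 or more of a line's 6 libraries were tested two-sided with limma 3.58.1 (lmFit, and eBayes with a variance trend) in R 4.3.3. P-values were adjusted by Benjamini-Hochberg over all tested genes, and those under 0.05 were called. Changes were compared between lines by an interaction contrast over 12 libraries and the genes kept in both lines. The script was tested on simulated data.

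Each value of up to 100 reads was divided by the value of 1 read to recover depth, and 92.1 to 94.7% of such values lay within 0.1 read of a whole number. At these depths 3 reads of a gene with 2 kb of exons correspond to 0.0687 to 0.145 FPKM, which covers counting error alone. Members called in a line are given with all library values. Of the other autophagy genes, the 3 largest called rises and falls per line are named. Alternatives were quantile normalization, TMM-style scaling (unweighted, log ratios trimmed by 30% and levels by 5%), 0.1 as pseudocount, genes with a mean of 5 FPKM or more, no filter, no variance trend, a replicate block, each library left out in turn and, chosen after seeing the data, removal of a trend on exon length.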

Additional observations from a re-analysis of the deposited data

Results flagged for a closer look

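For 15 autophagy genes the DHA change differed between LP-1 and U266 by the limma interaction test, with 3 libraries per group. Each value is the LP-1 change minus the U266 change on the log2 scale.

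Among genes of initiation and nucleation, ULK1 had a difference of -0.91 (adjusted p = 0.000130), ATG13 of 0.49 (adjusted p = 0.00380), PIK3C3 of 0.46 (adjusted p = 0.0308) and UVRAG of -0.53 (adjusted p = 0.00320). WIPI1, of membrane supply, had 0.57 (adjusted p = 0.00641). Of the conjugation genes, ATG4B had -0.30 (adjusted p = 0.0393), ATG10 -0.44 (adjusted p = 0.0248) and ATG12 -0.36 (adjusted p = 0.0307). In the ATG8 family, MAP1LC3B had -0.87 (adjusted p = 0.000126), GABARAPL1 -0.95 (adjusted p = 0.000168) and GABARAPL2 -0.71 (adjusted p = 0.0276). Among receptors, SQSTM1 had 0.67 (adjusted p = 0.000709), NBR1 -0.31 (adjusted p = 0.0204), OPTN -1.18 (adjusted p = 1.4e-05) and BNIP3L -0.48 (adjusted p = 0.00171).

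OPTN and BNIP3L were lower with DHA in all LP-1 libraries and higher with DHA in all U266 libraries. The differences of PIK3C3, ATG4B, ATG10, ATG12, GABARAPL2 and NBR1 were each lost when certain single libraries were left out. With TMM-style scaling those of ATG4B, ATG10, ATG12, GABARAPL2, NBR1 and BNIP3L were lost (adjusted p 0.0877 to 0.378), and with the exon length trend removed that of PIK3C3 (0.15, adjusted p = 0.207). Groups of 3 libraries were not searched gene by gene for an outlying sample.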

How the results depend on the processing

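No filter left 7 LP-1 members called higher (18.4%, beside 6.84% of all genes). A mean of at least 5 FPKM, which tests fewer genes, left 3034 LP-1 genes called (1664 higher and 1370 lower) and 2014 genes differing between the lines. TMM-style scaling left 9 U266 members called, 9 higher and 0 lower, with 1152 genes called higher, 34.6% of all U266 calls against 51.9% without it, and 71.5% against 53.6% of the called line differences above 0. The one U266 member called lower, GABARAPL2, was not called (0 members lower) with no filter, no variance trend, the replicate block or the exon length trend removed. Without 1 library at a time, LP-1 members called ranged from 8 to 24 (6 to 16 higher, 2 to 8 lower) and LP-1 genes from 2783 to 6745 (1244 to 3488 higher, 1511 to 3257 lower). U266 members ranged from 14 to 18 (14 to 17 higher, 0 to 1 lower) and U266 genes from 3417 to 4294 (1736 to 2152 higher, 1649 to 2142 lower). Members differing between the lines ranged from 9 to 22 and genes from 2318 to 4146. The causes were not tested.

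With the replicate block, 14 LP-1 members (10 higher, 4 lower), 16 U266 members (16 higher, 0 lower) and 16 line differences were called, over 4559 LP-1 genes, 3891 U266 genes and 2871 line differences. Same-numbered DHA and DMSO libraries correlated in their deviations at 0.0742, 0.0237 and 0.183 in LP-1 and at -0.0386, -0.0832 and -0.0247 in U266. Pairs of different numbers correlated at -0.173 to 0.162 in LP-1 and at -0.0229 to 0.0731 in U266. With 3 libraries per group, these values cannot tell whether equal numbers mark shared cultures. Signs turned for small changes that were not called. In LP-1 these were ATG9A (0.004) with a pseudocount of 0.1, ULK1 (0.024) and ATG9A (0.021) with TMM-style scaling, and ATG4B (-0.026), ATG4D (-0.001) and ATG12 (-0.008) with quantile normalization. Removing the exon length trend turned BECN1 (-0.028), ATG4B (-0.093), ATG12 (-0.14) and NBR1 (-0.132) in LP-1. In U266, TMM-style scaling turned ATG13 (-0.092), WIPI2 (-0.018), ATG4A (-0.037), ATG4C (-0.026) and MAP1LC3A (-0.004), and quantile normalization ATG13 (-0.005) and MAP1LC3A (-0.055). The line difference turned for ATG4D (0.02) with TMM-style scaling and for ATG7 (-0.16) with the exon length trend removed. Over libraries left out in turn, LP-1 changes spanned -0.01 to 0.067 for ATG12, -0.052 to 0.078 for ATG4B, -0.039 to 0.155 for ATG4D, -0.381 to 0.181 for ATG9A, 0 to 0.055 for NBR1 and -0.049 to 0.073 for ULK1. U266 changes spanned -0.01 to 0.04 for ATG13, -0.014 to 0.157 for ATG4C, -0.051 to 0.003 for BNIP3 and -0.015 to 0.129 for MAP1LC3A. Line differences spanned -0.094 to 0.229 for ATG101, -0.177 to 0.016 for ATG4D and -0.093 to 0.07 for ATG7. At these depths MAP1LC3A in LP-1 had 0 to 3 reads, at or under the floor of 3 reads, and GABARAP in U266 had 1 to 16 reads. ULK2 had 0 to 4 reads in all libraries but U266 DHA replicate 3. No changes are given for these below the filter.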
